A study of Mus musculus with 6 samples.

Results

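The protein genes of the large subunit of the cytosolic ribosome were followed in the adrenal gland of mice without PACAP, the neuropeptide encoded by Adcyap1 that the splanchnic nerve releases onto the chromaffin cells of the adrenal medulla. Members were all genes whose current mouse symbol is Rpl with a number and an optional a, or Rplp0, Rplp1 or Rplp2. They numbered 43 of 11837 named genes and were represented by 114 of 36273 clones on the array. The symbols Rpl18 and Rpl38 had no clone of their own. Of the 114 clones, 110 had values on at least 4 of 6 arrays and were tested, and these covered all 43 genes. The 4 clones not tested were 1 each of Rpl5, Rpl15, Rpl27 and Rplp2.

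Each of 6 spotted cDNA arrays compared 1 adrenal RNA of PACAP -/- mice, labelled with Cy3 (green), with 1 adrenal RNA of PACAP +/+ mice, labelled with Cy5 (red). Both genotypes were 129XC57BL6 F2 mice, and the labels used here give no age, sex or treatment and no number of animals per RNA. The targeting of Adcyap1 is not described in the sources used here. Its 1 clone passed the quality filter on 2 arrays and was not tested, so it gave no check of the labels. Knockout RNA carried Cy3 throughout, so a clone's dye effect and its genotype effect cannot be told apart. P-values measure the spread between the 6 arrays. This spread may be technical in part or in whole, as the labels do not say whether the repeats are separate animals. The quality filter kept between 25949 and 31857 spots per array, fewest on arrays 2 and 4. Signals were background-subtracted. The median red (wild-type) signal was then 6.34, 2.14, 2.69, 1.58, 2.92 and 1.88 times its local background on arrays 1 to 6. The green (knockout) signal lay between 7.45 and 9.17 times its own. Adrenal marker genes were measured: 6 of 10 chromaffin genes and 6 of 9 cortex genes had a tested clone. Among those without one were Dbh, Pnmt, Cyp11b1, Cyp11b2 and Cyp21a1.

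The large subunit holds the peptidyl transferase centre, which joins amino acids, and the exit tunnel through which the new chain leaves. Its proteins surround the ribosomal RNA, are made in near-equal amounts and are mostly unstable when not built into a ribosome. In mammals their mRNAs are known as TOP mRNAs: they begin with a C and a run of pyrimidines, and mTOR signalling controls their translation together. In the adrenal gland, as in other secretory tissue, ribosomes supply both hormone-making enzymes and secreted peptides.

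The start regions of 6 members are shown because the pyrimidine run is the sequence feature for which this family is known, and because these genes are among those described below (Rpl4 with the highest and Rpl36a with the lowest gene mean, Rpl14 with all clones called, Rplp0 and Rplp2 of the stalk, and Rpl11 of the 5S particle). Each is 30 bases of RefSeq sequence on the sense strand (GRCm38.p6), with 15 bases before the annotated start and 15 from the start on. Capitals mark a run of at least 8 C or T that overlaps the 10 bases on either side of the start. The first 3 hold such a run, and the other 3 do not. In Rpl4 the run lies wholly before the annotated start, and part of it lies before the window shown. Whether the annotated starts are those used in the adrenal gland was not tested.
Rpl4 (chr9:64173372-64173401, plus strand): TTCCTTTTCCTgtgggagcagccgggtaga
Rpl14 (chr9:120571502-120571531, plus strand): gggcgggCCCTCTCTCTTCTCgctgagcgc
Rplp2 (chr7:141447636-141447665, plus strand): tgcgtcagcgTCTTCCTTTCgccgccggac
Rplp0 (chr5:115559452-115559481, plus strand): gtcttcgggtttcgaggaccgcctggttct
Rpl11 (chr4:136053379-136053408, minus strand): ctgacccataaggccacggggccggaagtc
Rpl36a (chrX:134585639-134585668, plus strand): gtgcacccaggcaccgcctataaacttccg
The RefSeq promoter table held 32 of the 43 genes, with 38 start regions. A run of at least 8 C or T was present in 16 of these 38 (42.1%), in 13 of 31 start regions of small subunit genes (41.9%) and in 14.0% of all 32851 start regions. On the opposite strand, which appears as a run of at least 8 A or G, the shares were 10.5%, 0% and 15.6%. The annotated start base itself was a C in 26.3%, 38.7% and 16.3%, in the same order. The 15 member genes with a run in any start region had a median gene ratio of 0.26 (log2, knockout over wild type), and the 17 without had 0.24.

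Large subunit clones were mostly above 0 in PACAP -/- adrenals. With each print block normalized separately (print-tip loess), 99 of 110 clones (90.0%) had a mean log2 ratio above 0, compared with 49.7% of all 28674 clones tested. The median over the members was 0.27, and over all clones it was 0.00. At an adjusted p under 0.05 (limma, Benjamini-Hochberg over all clones), 33 member clones of 18 genes were higher in the knockout and 0 were lower, a share of 30.0%, while 6.72% of all clones were called higher and 4.59% lower. At an unadjusted p under 0.05, 64 of the 110 passed (63 higher), against 32.8% of all clones in either direction and 17.7% higher. The called ratios lay between 0.29 and 0.90, which is 1.22-fold to 1.87-fold. Of the 33, 29 were above 0 on all 6 arrays. Called or not, 44 of the 110 members were above 0 on every array on which they were measured (at least 4), against 10.9% of all clones.

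These calls lay close to the threshold, with adjusted p from 0.0247 to 0.0494, and depended on single arrays. Without array 1, 34 members were higher and 1 was lower, Rpl36a clone 1, and without array 5, 33 were higher and 0 lower. Without array 2, 3, 4 or 6 no member passed the adjusted threshold, and of all clones between 1 and 19 did, while 62, 55, 51 and 60 members passed at an unadjusted p under 0.05, against 25.1%, 27.3%, 24.3% and 33.0% of all clones. Without both arrays 2 and 4, 1 member clone was called, Rpl4 clone 4, the median was 0.22 and 92 of the 110 clones tested there were above 0. With 1 global loess curve per array, 44 member clones were higher and 5 were lower, beside 16.2% and 14.2% of all clones (30.4% in either direction), and the median was 0.28. With that normalization 83 of the 110 were above 0, against 51.6% of all clones, and 53 were higher at an unadjusted p under 0.05, against 22.4%. With each array only centred on its median, 32 were higher and 8 lower. The authors' deposited value table has no intensity-dependent normalization. For this setting its ratios were turned to knockout over wild type and centred on the median of each array. There 0 members were called and 33 of 110 had an unadjusted p under 0.05 (13 higher and 20 lower). Of all clones, 40.2% did so in either direction and 20.3% higher. The member median was -0.12, below the 0.24 of all clones.

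**Figure D1:**
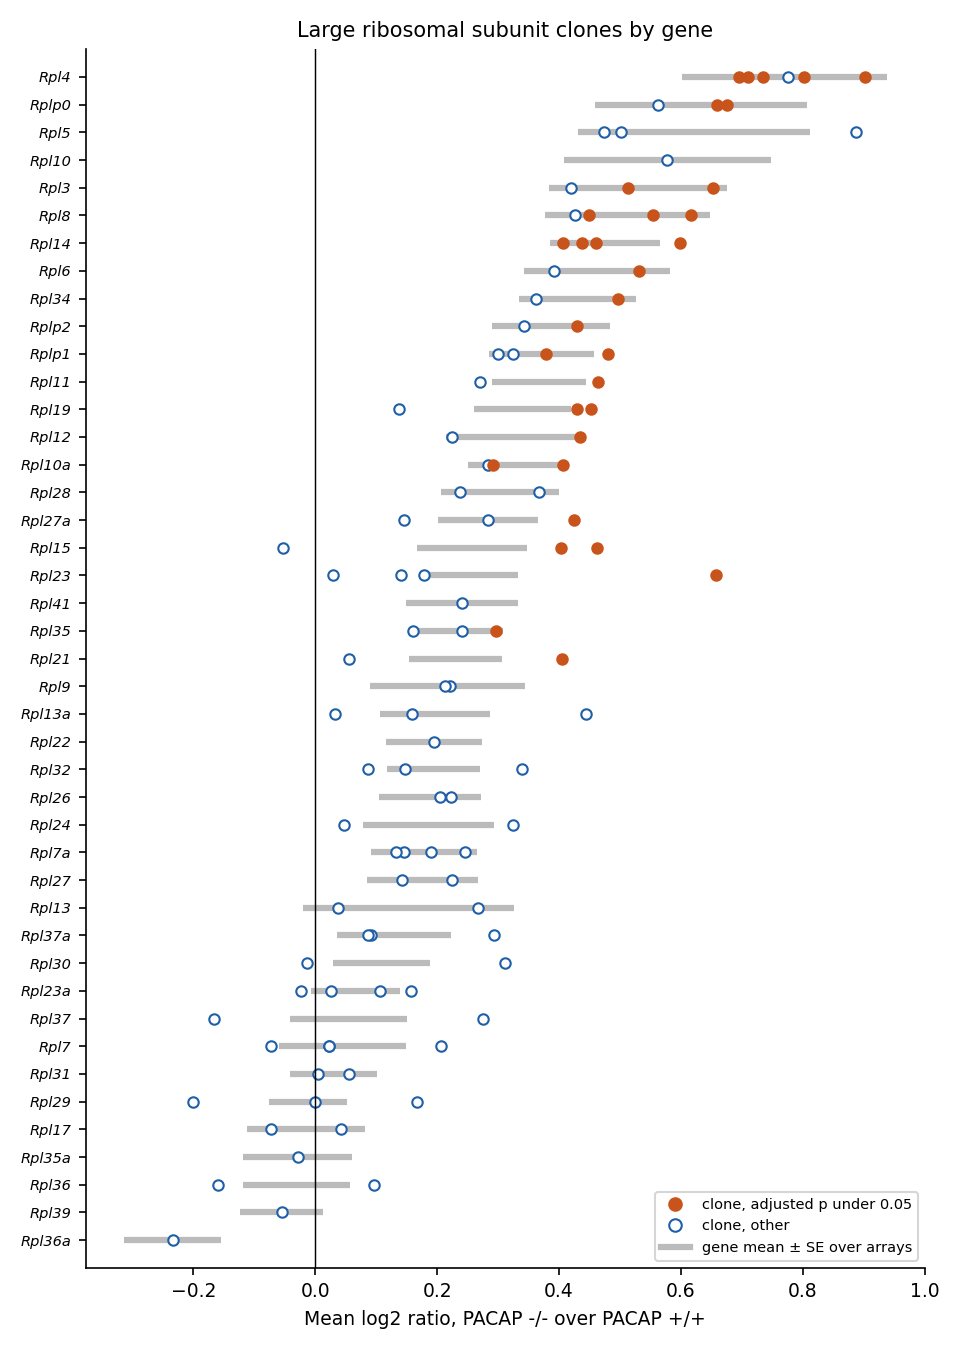
Mean log2 ratio, PACAP -/- over PACAP +/+, of each of the 110 clones tested (points, print-tip loess) in its gene's row, with the gene mean ± SE over 6 arrays (grey). The 33 filled points passed an adjusted p of 0.05, and 37 of the 43 gene means lie above 0.

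Averaged over their clones, 37 of 43 genes were above 0 (median 0.23). Of the gene means, 13 were called higher and 0 lower, against 6.73% higher and 3.47% lower among the 10416 named genes tested the same way. The highest gene means were those of Rpl4 (0.77 ± 0.17, SE, 6 arrays), Rplp0 (0.63 ± 0.17), Rpl5 (0.62 ± 0.19), Rpl10 (0.58 ± 0.17), Rpl3 (0.53 ± 0.15), Rpl8 (0.51 ± 0.14) and Rpl14 (0.48 ± 0.09). Of these, Rpl5 (adjusted p = 0.0581, limma) and Rpl10 (adjusted p = 0.0515) did not pass. The lowest were Rpl36a (-0.23 ± 0.08), Rpl39 (-0.05 ± 0.07), Rpl36 (-0.03 ± 0.09), Rpl35a (-0.03 ± 0.09), Rpl17 (-0.01 ± 0.10) and Rpl29 (-0.01 ± 0.06). Neighbours in this order differed by less than their standard errors, apart from the step below Rpl39 to Rpl36a.

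The spread over arrays was large and went with the array. The member median on arrays 1 to 6 was 0.20, 0.18, 0.20, 0.51, 0.07 and 0.32, while that of all clones lay within 0.01 of 0 on each. Members above 0 numbered 93 of 110, 84 of 109, 83 of 109, 98 of 110, 66 of 106 and 88 of 109. The highest value of a called member clone was on array 4 in 21 of 33 and on array 2 in 5, and the lowest was on array 1 or 5 in 25. Red signal that was smaller, after background subtraction, than its local background was recorded for 4 of 129 member spots on array 2. It was recorded for 18 of 130 on array 4 and 4 of 129 on array 6, and for none on the others. The part of the weak red signal in the ratios was not tested, other than by leaving out the spots concerned. With both background-subtracted signals required to exceed the local background, 32 members were higher and 0 lower.

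**Figure D2:**
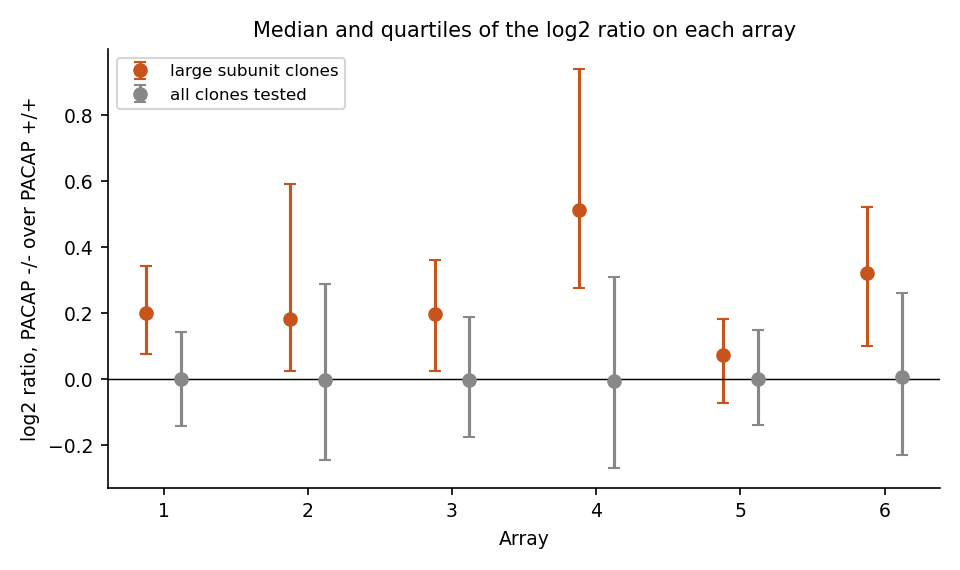
Median (points) and quartiles (bars) of the log2 ratio, PACAP -/- over PACAP +/+, of the large subunit clones (orange) and of all clones tested (grey) on each array. The member median lies above that of all clones on each array, from 0.07 on array 5 to 0.51 on array 4.

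Rpl4, which lines the exit tunnel with a long loop, had the highest gene mean of the family. Of its 6 clones, 5 are among the 10 called clones with the largest ratio. Rpl4 clone 4 had background-subtracted signals of 3887.6, 3940.5, 4038.8, 2600.3, 3506.2 and 3330.3 in knockout RNA on arrays 1 to 6, against 2011.5, 560.1, 1220.1, 237.2, 1001.9 and 259.8 in wild-type RNA, before the dyes were normalized to each other. After normalization its log2 ratios were 0.52, 1.50, 0.69, 1.58, 0.50 and 0.63, with a mean of 0.90 ± 0.16 (SE, 6 arrays, limma adjusted p = 0.0247). Every array was above 0, and arrays 2 and 4 stood above the rest.
Rpl4 clone 2 read 0.26, 1.23, 0.56, 1.45, 0.40 and 0.92 (mean 0.80 ± 0.15, limma adjusted p = 0.0257). Rpl4 clone 5 read 0.10, 1.50, 0.49, 1.44, 0.38 and 0.50 (mean 0.74 ± 0.18). Both were above 0 on every array and highest on arrays 2 and 4, like clone 4. Rpl4 clone 1 read -0.02, 1.35, 0.34, 1.20, 0.70 and 0.69 (mean 0.71 ± 0.16), and Rpl4 clone 3 read 0.16, 1.14, 0.34, 1.24, 0.51 and 0.79 (mean 0.70 ± 0.14). Rpl4 clone 6, the dimmest, had a mean of 0.78 ± 0.24 and did not pass (adjusted p = 0.0618, limma). The gene's value on array 1 was the lowest of the 6 in each Rpl4 clone but clones 4 and 6. Without arrays 2 and 4, Rpl4 clone 4 stood at 0.58 ± 0.10 and the other 5 between 0.28 and 0.54.

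The acidic stalk, which recruits the GTPase translation factors, was above 0 in all 11 clones of its 4 genes, and 6 of them rose. Among all clones, 49.7% were above 0 and 6.72% were called higher. The median of the stalk clones was 0.43. Rplp0, the base to which the stalk dimers attach, read -0.05, 1.02, 0.72, 1.34, 0.10 and 0.92 in clone 1 on arrays 1 to 6 (mean 0.68 ± 0.17, limma adjusted p = 0.038). Rplp0 clone 3 read 0.04, 1.25, 0.54, 1.32, 0.05 and 0.75 (mean 0.66 ± 0.18, adjusted p = 0.0418). Rplp0 clone 2 read -0.25, 0.99, 0.65, 1.20, -0.07 and 0.85 (mean 0.56 ± 0.18) and did not pass. In all 3 clones the values of arrays 1 and 5 were near 0 or below it, and those of the other 4 arrays were above 0.5.
Rplp1 and Rplp2 form the dimers of the stalk itself. Rplp1 clone 3, which has another description in the scanner files, rose, with 0.32, 0.64, 0.15, 0.98, 0.30 and 0.50 (mean 0.48 ± 0.11, limma adjusted p = 0.032). Rplp1 clone 2 also rose, with 0.10, 0.48, 0.23, 0.81, 0.16 and 0.49 (mean 0.38 ± 0.10). Neither had an array below 0. Rplp1 clone 4 (0.35, 0.11, 0.24, 0.42, 0.10 and 0.74) and Rplp1 clone 1 (0.36, 0.42, 0.05, 0.36, 0.02 and 0.60) did not pass, at means of 0.32 and 0.30. Rplp2 clone 2 rose, with 0.14, 0.40, 0.66, 0.77, 0.14 and 0.47 (mean 0.43 ± 0.10, adjusted p = 0.0339). Rplp2 clone 1 read 0.10, 0.45, 0.41, 0.67, -0.07 and 0.50 (mean 0.34 ± 0.10) and did not pass.
Rpl12, which lies beside the stalk base, rose in clone 1, with 0.02, 0.76, 0.50, 0.82, 0.19 and 0.32 (mean 0.44 ± 0.11, limma adjusted p = 0.0402). Rpl12 clone 2 read -0.11, 0.37, 0.29, 0.87, 0.17 and -0.24 (mean 0.23 ± 0.13) and did not pass. Rplp0 clone 1 lost its call and most of its size with global loess (0.19, limma adjusted p = 0.358) and with median centring (0.01, adjusted p = 0.965), whereas Rplp0 clone 3 stood at 1.21 and 1.12. With global loess, Rplp1 clone 2 stood at -0.22 and Rplp2 clone 1 at -0.10, so the sign of these 2 clones depended on the print-block correction.

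Rpl5 and Rpl11 form a particle with the 5S ribosomal RNA and, when not built into a ribosome, can bind Mdm2, the ubiquitin ligase of p53. All 5 clones of the pair were above 0, against 49.7% of all clones. Of the 5, 1 rose, against 6.72% of all clones. Rpl11 clone 1 read 0.41, 0.63, 0.34, 0.61, 0.70 and 0.10 (mean 0.46 ± 0.09, limma adjusted p = 0.0282). Rpl11 clone 2 read 0.52, 0.20, 0.16, 0.42, 0.23 and 0.10 (mean 0.27 ± 0.08, adjusted p = 0.0575). The highest value was on array 5 in Rpl11 clone 1 and on array 1 in Rpl11 clone 2, whereas clones of Rpl4 and Rplp0 were highest on array 2 or 4. The Rpl11 gene means on arrays 1 to 6 were 0.46, 0.42, 0.25, 0.51, 0.47 and 0.10, with array 4 still highest.
Rpl5 clone 1 had the second highest mean of all members, 0.89 ± 0.28, from 0.02, 2.14, 0.61, 1.97, 0.17 and 0.42, and did not pass (limma adjusted p = 0.0606). The scanner files describe that clone as another gene, and its mean signal of 14.0 on the log2 scale lay far above that of the other 2 Rpl5 clones (10.8 and 9.54). Rpl5 clone 2, also described as another gene, read 0.16, 0.55, 0.27, 1.53, -0.21 and 0.55 (mean 0.47 ± 0.18, adjusted p = 0.105), and Rpl5 clone 3 read 0.37, 0.91, 0.16, 1.22, 0.11 and 0.24 (mean 0.50 ± 0.15, adjusted p = 0.0529). Of the genes of the p53 branch listed with them, only Mdm2 was tested, and its 3 clones, at -0.16, -0.03 and 0.65, did not pass (4.59% of all clones were lower and 6.72% higher).

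**Figure D3:**
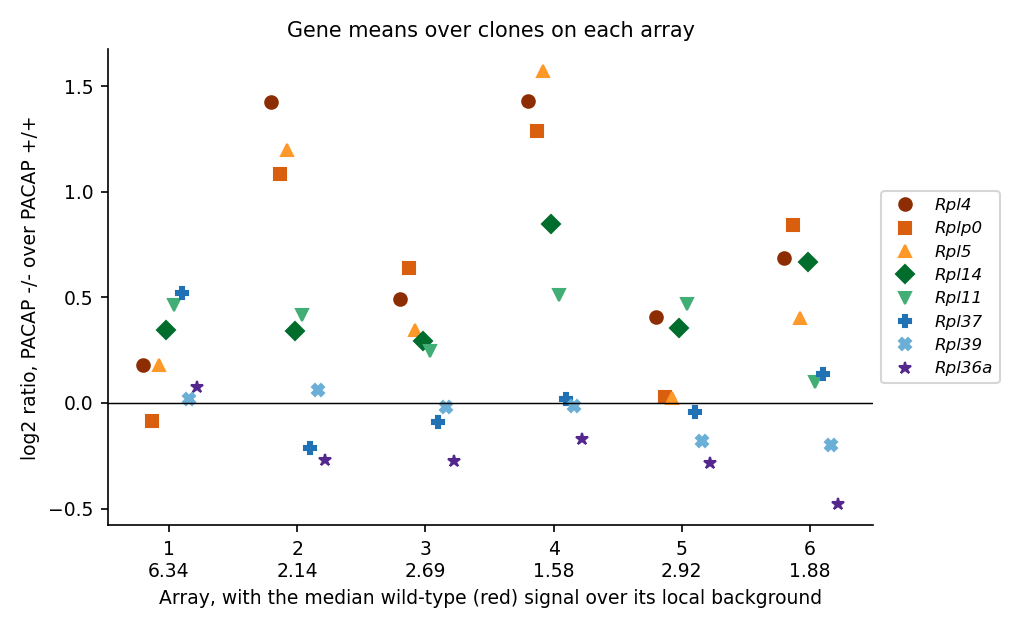
Gene means over clones (log2 ratio, PACAP -/- over PACAP +/+) for 8 members on each array. Under the array number stands the median background-subtracted wild-type signal over its local background. Rpl4, Rplp0 and Rpl5 lie above 1 on arrays 2 and 4 and between -0.09 and 0.41 on arrays 1 and 5, whereas Rpl36a is below 0 on 5 of 6 arrays.

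Besides Rpl4 and Rplp0, the 10 highest calls held 3 clones of genes at or near the catalytic centre and the subunit interface. Rpl3 and Rpl8 both reach towards the peptidyl transferase centre, and Rpl23 faces the small subunit. Rpl3 clone 1 read 0.30, 1.45, 0.47, 1.22, 0.13 and 0.35 (mean 0.65 ± 0.17, limma adjusted p = 0.0408). Rpl8 clone 4, described as another gene in the scanner files, read -0.30, 1.09, 0.55, 1.03, 0.25 and 1.07 (mean 0.62 ± 0.17, adjusted p = 0.0494). Rpl23 clone 4 read 1.11, 0.57, 0.48, 0.65, 0.11 and 1.02 (mean 0.66 ± 0.13, adjusted p = 0.0259). This last clone was highest on arrays 1 and 6, and the other 3 Rpl23 clones had means between 0.03 and 0.18.

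With print-tip loess on all 6 arrays no member was called lower. The 5 lowest means over 6 arrays were those of Rpl36a clone 1, Rpl29 clone 3, Rpl37 clone 1, Rpl36 clone 2 and Rpl7 clone 1. Rpl36a, which lies near the exit site of the transfer RNA, read 0.08, -0.27, -0.28, -0.17, -0.28 and -0.48 (mean -0.23 ± 0.08, limma adjusted p = 0.0921). It was below 0 on 5 arrays, and with global loess it stood at -0.35 (adjusted p = 0.0328). Without array 1 it was called lower, at -0.30 (limma adjusted p = 0.0486). Rpl36al, a near-identical copy outside the symbol rule, stood at 0.29 and did not pass, and cDNA clones of the pair may share transcripts.
Rpl29 clone 3 read 0.01, -0.24, -0.12, -0.18, -0.04 and -0.63 (mean -0.20 ± 0.10). Rpl37, a zinc-binding protein, read 0.20, -0.32, -0.19, -0.21, -0.10 and -0.37 in clone 1 (mean -0.17 ± 0.09), and its clone 2 stood at 0.28. Both clones named here were below 0 on 5 of the 6 arrays. Rpl36 clone 2 (0.23, -0.29, -0.06, -0.51, 0.07 and -0.38, mean -0.16 ± 0.10) and Rpl7 clone 1 (0.00, -0.36, -0.26, 0.66, -0.62 and 0.15, mean -0.07 ± 0.15) crossed 0. None of these 5 passed.

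Around the peptide exit tunnel, 8 of 24 clones of 9 genes were higher, 0 were lower and 21 were above 0, with a median of 0.20. The shares over all clones were 6.72% higher, 4.59% lower and 49.7% above 0. The calls came from 3 genes: Rpl4 (5 of 6 clones), Rpl19 (2 of 3 clones, 0.43 and 0.45) and Rpl35 (1 of 3 clones, 0.30). Rpl23a, the docking site for factors that meet the new chain, had 4 clones between -0.02 and 0.16. Rpl31 lay at 0.00 and 0.06, Rpl39 at -0.05, Rpl17 at -0.07 and 0.04, Rpl22 at 0.20 and Rpl26 at 0.20 and 0.22, and none of these passed.

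Among genes with several clones, the clones mostly lay together. In the 37 genes with at least 2 tested clones, the mean ratios of a gene's clones spanned 0.21 in the median gene and 0.01 to 0.63 at the extremes. In 29 of the 37 all clones were above 0. Differences between genes accounted for 62.9% of the variance among these 104 clones with print-tip loess and for 29.6% with global loess. This variance component is a description, since clones of a gene share the RNA of the same 6 arrays. Rpl14 had 4 of 4 clones called, at 0.41 to 0.60, and its gene values on arrays 1 to 6 were 0.35, 0.34, 0.29, 0.85, 0.35 and 0.67. Rpl8 had 3 of 4 called, at 0.43 to 0.62 over all 4, and Rpl3 had 2 of 3, at 0.42 to 0.65. Rpl7a (0.13 to 0.24, 4 clones), Rpl7 (-0.07 to 0.21, 4 clones) and Rpl32 (0.09 to 0.34, 3 clones) had none. Clones disagreed most in Rpl23 and in Rpl15, whose clones 2 and 3 were called at 0.46 and 0.40 while clone 1, the brightest, stood at -0.05.

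The remaining members are given by their called clones. In Rpl6, Rpl34, Rpl21 and Rpl27a 1 clone was called at 0.53, 0.50, 0.41 and 0.42, and in Rpl10a 2 clones were called at 0.29 and 0.41. Rpl10, a late-joining protein needed for the subunit to become active, had 1 clone, at 0.58 ± 0.17 with 0.05, 1.00, 0.36, 1.44, 0.12 and 0.50 on the 6 arrays (adjusted p = 0.0529, limma), and was not called. Rpl28 (0.24 and 0.37), Rpl41 (0.24), Rpl9 (0.21 and 0.22), Rpl24 (0.05 and 0.33), Rpl27 (0.14 and 0.22) and Rpl13 (0.04 and 0.27) had no call, nor had Rpl13a (0.03 to 0.44) and Rpl37a (0.09 to 0.29). Rpl30 (-0.01 and 0.31) and Rpl35a (-0.03) had none either.

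Print position moved with the ratios before it was corrected. With global loess, the 48 print blocks had mean log2 ratios from -0.57 to 0.56 and accounted for 46.9% of the variance over all spots. Over the 110 member clones, Spearman's rho between a clone's ratio and the mean of its block was 0.81 with global loess and 0.08 with print-tip loess, where block means lay between 0.01 and 0.05. Clones within a block share their pin and position. The 5 clones called lower with global loess (2 of Rpl29 and 1 each of Rpl30, Rpl31 and Rpl36a) lay in blocks with means of -0.49 to -0.13. Of the 33 clones called with print-tip loess, 26 were also called with global loess. They include clones of Rpl4, Rplp0, Rpl14, Rpl3 and Rpl8. Several ratios were larger with global loess, among them Rpl11 clone 1 (0.92), Rpl3 clone 1 (1.17) and Rpl23 clone 4 (1.30).

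**Figure D4:**
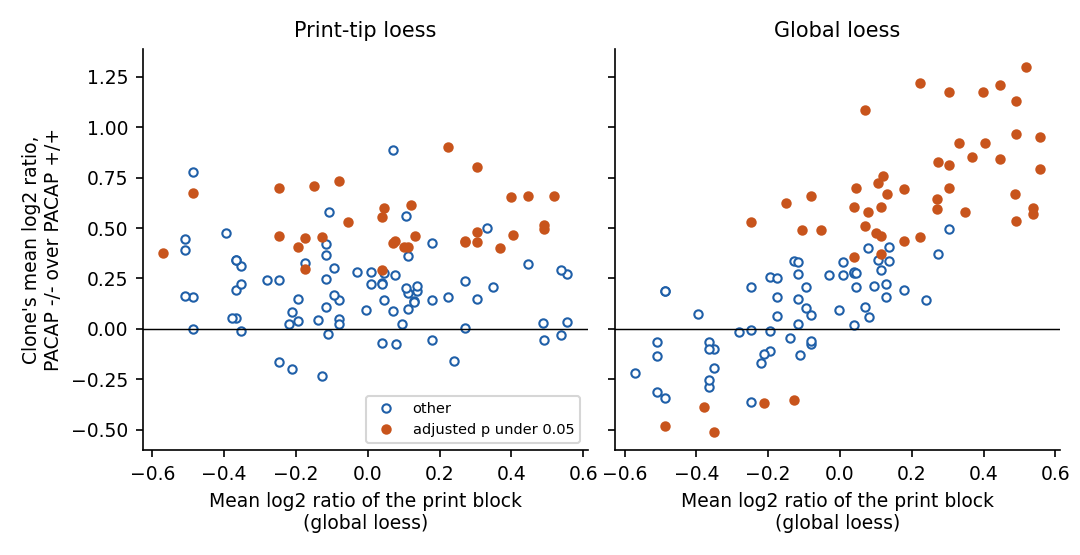
Mean log2 ratio of each member clone, PACAP -/- over PACAP +/+, against the mean of its print block under global loess, after print-tip loess (left) and global loess (right). Filled points passed an adjusted p of 0.05. The ratios follow the block only with global loess (rho 0.81, against 0.08).

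The members were brighter than most clones, with a median mean signal of 9.83 on the log2 scale against 8.82 for all clones, and 47 of 110 lay in the brightest of 4 equal bins. Among all clones the share called higher was 2.58%, 5.12%, 8.89% and 10.3% from the dimmest to the brightest bin. Among members the counts were 0 of 2, 3 of 13, 16 of 48 and 14 of 47 in the same bins, 23.1% to 33.3% in the upper 3. Titles in the scanner files named a ribosomal protein or the same gene for 57 of the 110 clones, of which 16 were called and 50 were above 0 (median 0.27). A further 37 titles named no gene, and 16 clones had another description. Clones with another description include Rplp1 clone 3, Rpl7 clone 1, Rpl3 clone 3 and Rpl37 clone 2.

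Within the family the ratio went with the number in the gene's name, numbers that were first given roughly in order of falling protein size. This relation was chosen after the values were seen and is given as a description without a test. Over 40 numbered genes Spearman's rho between number and gene mean was -0.60 (-0.47 with global loess). The 10 genes up to number 10 had a median of 0.49, with 13 of 32 clones called. The 16 genes from there to number 27 had 0.21 (13 of 41 clones), and the 14 genes from number 28 up had 0.08 (2 of 28 clones). Beside these counts, 6.72% of all clones were called higher. The relation was not the same on every array: rho was 0.27, -0.76, -0.53, -0.72, -0.27 and -0.28 on arrays 1 to 6. On array 2 the low-numbered and the high-numbered genes had medians of 0.74 and -0.04, and on array 4 they had 0.98 and 0.21, whereas on array 1 they had 0.13 and 0.24. Number and mean signal had a rho of -0.20.
The order of the genes was shared by some arrays only. Between pairs of arrays 2 to 6, rho over the 43 gene values lay between 0.28 and 0.82 (10 pairs), and it was highest between arrays 2 and 4. Between array 1 and the others it lay between -0.27 and 0.23 (5 pairs). Array 1 had the strongest red signal of the 6.

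**Figure D5:**
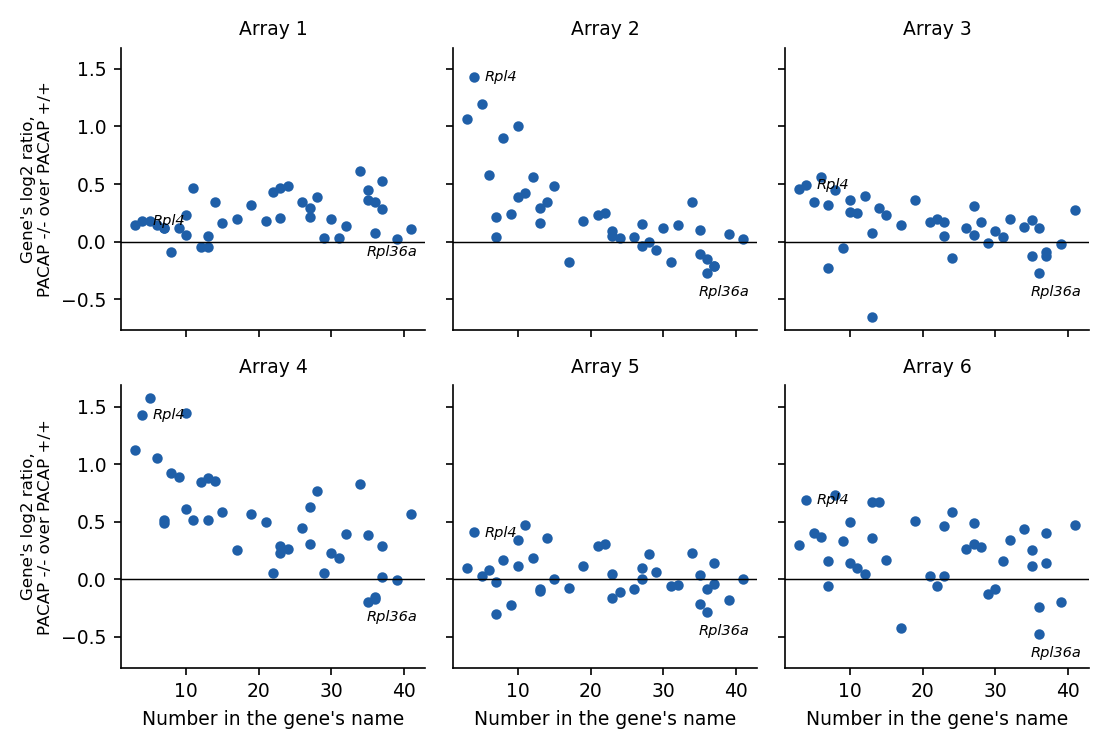
Log2 ratio of each of 40 numbered genes (mean over clones, PACAP -/- over PACAP +/+) against the number in its name, 1 panel per array. The low-numbered genes stand highest on arrays 2 and 4 (rho -0.76 and -0.72) and do not on array 1 (rho 0.27).

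Small subunit genes were also mostly above 0. Of 71 clones of 27 small subunit genes, 14 were higher (19.7%, against 6.72% of all clones) and 0 were lower (4.59% of all clones). Above 0 were 65 (91.5%, against 49.7%). Their median was 0.23, with array medians of 0.19, 0.15, 0.10, 0.53, 0.04 and 0.26. The genes with the largest called clones were Rps24 (0.70 ± 0.13, both clones called) and Rps6 (0.57 ± 0.14, 4 of 6 clones called). The difference between the subunits was not tested. Large subunit genes outside the symbol rule (Rpl7l1, Rpl22l1 and Rpl36al) had 0 of 8 clones called and a median of -0.01. At an unadjusted p under 0.05, 4 of the 8 passed, against 32.8% of all clones. With global loess 5 of the 8 were called higher (median 0.48), against 16.2% of all clones.

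Other genes of the pathway were counted in 3 lists. Of 74 clones of 39 genes for assembly, export and maturation of the large subunit, 4 were higher and 2 lower, with a median of 0.04. The share higher, 5.41%, was near the 6.72% of all clones called higher, beside 4.59% of all clones called lower. Each of the 6 calls came from 1 of the 2 to 4 clones of its gene. Sbds, which helps to release the joining block from the new subunit, had clones at 0.65 (called) and 0.00, and Efl1, its GTPase partner, at -0.28 (called) and 0.00. Nop53, a nucleolar assembly factor, had clones at 0.60 (called) and 0.14, and Fbl, which methylates ribosomal RNA, at 0.46 (called), -0.03 and -0.04. Npm1, a nucleolar chaperone, had 1 of 4 clones called (0.96), with the others at 0.04 to 0.17, and Rpf2, which brings Rpl5 and Rpl11 into the early particle, had 1 of 2 called (-0.42). With global loess, clones of Nop53 (0.85 and -0.39), Fbl (0.74 and -0.61), Nip7 (0.359 and -0.627) and Nop58 (0.369 and -0.515) were called in both directions. No clone of Sbds passed there. Of 39 clones of genes for ribosomal RNA transcription and TOP mRNA control, 1 was higher, a clone of Tsc1 at 1.61, and 0 were lower (median 0.10). The other 2 Tsc1 clones stood at 0.01 and -0.06. Of 44 clones of translation elongation and release genes, 16 were higher and 1 lower (median 0.33). All 12 Eef1a1 clones, at 0.84 to 1.42, were among the higher ones. Without that gene 4 of 32 were higher and 1 lower (median 0.14). The 3 clones of Eef2, at 0.45 to 0.71, rose, as did 1 of 3 clones of Eef1a2 (0.62), while 1 of 3 clones of Eef2k, the kinase that inhibits Eef2, fell (-0.36). TOP mRNAs also include those of Eef1a1 and Eef2.

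Markers of the 2 main adrenal cell populations stood high on the same arrays. The counts below stand beside 6.72% of all clones called higher and 4.59% called lower (11.3% in either direction). Of 9 chromaffin marker clones, 5 were higher (Chga, Chgb and Scg2) and 1 was lower (Slc18a1), with array medians of 0.17, 0.79, 0.39, 0.98, 0.13 and 0.78. Of 9 cortex marker clones, 4 were higher (Hsd3b1, Scarb1 and Nr5a1) and 0 lower, with array medians of -0.08, 1.56, 0.63, 1.37, 0.14 and 0.40. Markers of endothelium (0 of 5 clones called), lymphocytes (0 of 3), Schwann and sustentacular cells (0 of 4), erythroid cells (0 of 1) and adipocytes (0 of 1) gave no call. Macrophage markers had 1 of 6 called, a clone of C1qb (0.88 ± 0.22). Fibroblast and capsule markers had 3 of 16 called, with 1 of 3 clones each of Col1a1 and Col3a1 higher and 1 of 2 clones of Pdgfra lower. In whole glands, more cells of a type and more RNA per cell cannot be told apart. The part of cell composition in the ribosomal protein ratios was not tested.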

How the data were processed

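Adrenal RNA of PACAP -/- and of PACAP +/+ mice had been hybridised in pairs to 6 arrays of 37632 spots. The labels call the arrays repeats and do not say whether these are separate animals. Per the series design text, the authors scanned with a GenePix 4000A, subtracted background, normalized, and used ratios of quality above 0.3; no versions are given in the sources used. The deposited intensity columns had background subtracted (the median over 768 empty positions was 1.0 in red and in green). The deposited quality score is a fraction from 0 to 1. The deposited calibrated ratio is red over green scaled by an array constant. The authors' value table holds log2 ratios of red over green with the background subtracted once more, floored at 1 and not centred (column medians -0.10, -1.65, -0.84, -2.59, -0.67 and -1.10 on arrays 1 to 6).

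Log2 green over red (knockout over wild type) was computed from the deposited intensities for spots of quality above 0.3, normalized within each array by print-tip loess (48 blocks), averaged over the spots of a clone, and compared with 0 in limma 3.58.1 under R 4.3.3 (lmFit, eBayes) for 28674 clones on at least 4 arrays, with Benjamini-Hochberg adjustment over all of them and a threshold of 0.05. Global loess was the first alternative. Genes come from the annotation of the value table, 99.8% of whose rows were linked to 1 spot by value (within 0.002 log2), with symbols updated through RefSeq (GRCm38.p6). Such annotation can be old, and cDNA clones can share signal with pseudogenes and near-identical copies. The procedure was tested on simulated data. The members, lists and tests were chosen with earlier results of these data known. Values by array are given for the genes of the 5S particle and the stalk, the 10 highest called clones and the 5 lowest; other members by range. Rpl14, Rpl10 and the gene number were singled out after their values were seen. The number of arrays limits the precision. Python 3.11.15, scipy 1.17.1 and pandas 2.3.3 were used for the summaries.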

Additional observations from a re-analysis of the deposited data

How the results depend on the processing

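The 33 calls, all higher in PACAP -/- adrenals, depended on the settings, while the sign of the member median held in every setting but the deposited value table. Members called (and all clones called) were 0 (0) with no quality filter, with the background subtracted again and with robust, trended variance priors, where 61 of 114, 53 of 110 and 62 of 110 members had an unadjusted p under 0.05, against 28%, 24.3% and 34.2% of all clones. They were 0 (90) in the deposited value table, 1 (83) without arrays 2 and 4, 19 (2066) without these and with global loess, 49 (8714) with global loess and 40 (9416) with median centring (32 higher and 8 lower). Among clones whose title names a ribosomal protein, 16 of 57 were called. Leaving out 1 array at a time gave 0 to 35 members (1 to 3746 clones), with 1 of the 35 lower without array 1, and, with global loess, 30 to 54 members, with 8647, 6071, 6083, 4465, 8058 and 7944 of all clones called without arrays 1 to 6. The settings that combine global loess with fewer arrays were chosen after seeing the data. Taking the brightest clone of each gene left 9 genes called in place of 18. With global loess 29 small subunit clones (27 higher and 2 lower) and 20 assembly clones (12 higher and 8 lower) were called, in place of 14 and 6. Of the clones of ribosomal RNA transcription and TOP control, 14 were called (8 higher and 6 lower), in place of 1. The shares with global loess were 40.8%, 27.0% and 35.9%, against 30.4% of all clones, which was 11.3% with print-tip loess. The member median was -0.12 in the deposited value table and 0.21 to 0.34 elsewhere. Why these settings differ was not tested.

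Some clones changed sign. With the deposited value table, turned to knockout over wild type and centred on each array's median, Rpl4 clones 1 and 3 stood at -0.16 and -0.03. Rplp0 clone 1 stood there at -0.41, Rplp1 clones 1 and 2 at -0.49 and -0.79, and Rpl5 clones 1 and 2 at -0.17 and -0.75. With global loess and with median centring, Rplp1 clone 2 stood at -0.22 and -0.35, Rplp2 clone 1 at -0.10 and -0.08, and Rpl36 clone 2 at 0.14 and 0.12. Rpl5 clone 2 was at -0.16 with median centring, where Rpl4 clones 1 and 3 (0.38 and 0.33) and Rplp0 clone 1 (0.01) lost their calls. Rpl7 clone 1 was at 0.06 with global loess and between -0.22 and 0.04 when 1 array was left out. No further pairing could be added to the main test, whose ratios within each array already pair 1 knockout with 1 wild-type RNA. With 6 arrays, no dye exchange and low background-subtracted red signals on several arrays, ratios of single clones are limited in precision.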

Other observations

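A further 24 clones carry a large subunit gene together with other genes in the annotation and were therefore not named. All 24 were tested, 21 were above 0, 7 were higher in PACAP -/- adrenals and 0 were lower, with a median log2 ratio of 0.35 (6.72% of all clones were higher and 4.59% lower).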
